A study of Arabidopsis thaliana with 6 samples.

Results

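Abscisic acid genes were followed in wild-type Arabidopsis thaliana seedlings given 200 nM CLE9 peptide, against wild-type seedlings given water (ddH2O). The set held 38 of the 27416 genes in the deposited table and was chosen by locus identifier from known roles in abscisic acid perception, signalling, turnover and response, not from measured values. It comprises 9 receptor genes, 8 phosphatase genes, 3 kinase genes, 7 genes of transcription factors and their regulators, 3 genes of synthesis and breakdown, and 8 response genes. Each group had 3 libraries of total RNA from whole seedlings, aged 7 days per the series' design text, and both groups were wild type. CLE9 is a small secreted signalling peptide. The labels give neither the length of exposure nor the number of seedlings per library. Nor do they say whether replicates were grown apart, so the p-values rest on a spread that could be technical.

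Abscisic acid is the plant hormone of water shortage, seed dormancy and stomatal closure. Its receptors, the PYR/PYL proteins, bind clade A protein phosphatases of type 2C when they hold the hormone, and so free the SnRK2 kinases that the phosphatases otherwise switch off. The kinases phosphorylate bZIP transcription factors of the ABF and ABI5 type, which bind DNA elements with the core ACGTG and turn on stress genes. Those stress genes include the phosphatase genes themselves, so the phosphatases are negative regulators whose transcripts also serve as readouts of the pathway.

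The values are FPKM, a measure of fragments that is scaled by transcript length and library depth, so levels can be set side by side between genes. The estimated depth was between 20.25 and 31.25 M fragments per library (M being 1e6). Replicate 2 differed from the rest in both groups. In it 13 genes of touch and wounding summed to 5272 FPKM with CLE9, against 1821 and 1787 FPKM in CLE9 replicates 1 and 3, and to 4732 FPKM in control replicate 2, against 841 and 788 FPKM in control replicates 1 and 3. The summed level of 6 leaf photosynthesis genes was 8718 FPKM in CLE9 replicate 2 and lay between 20259 and 24587 FPKM in the other 5 libraries, and 9 root genes summed to 44.4 and 76.8 FPKM in replicate 2 of CLE9 and control, against 128.9 to 231.7 FPKM elsewhere. In both groups, replicate 2 lay below the mean of replicates 1 and 3 for 7 root genes, with SCR and SHR the exceptions. In CLE9 replicates 1, 2 and 3, SCR was at 23.3, 25.0 and 32.3 FPKM and SHR at 11.3, 11.8 and 10.8 FPKM. In control replicates 1, 2 and 3, SCR was at 20.7, 22.1 and 19.2 FPKM. SHR was at 12.8, 8.70 and 12.2 FPKM there, so it was lower in replicate 2 of the control only. The 7 guard cell genes summed to between 31.1 and 55.0 FPKM with CLE9 and between 36.2 and 43.7 FPKM in control, and all 8 seed storage genes were under 1 FPKM in every library. In whole seedlings, fewer cells of a type and less RNA per cell cannot be told apart.

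Setting CLE9 against water asks which transcripts of the abscisic acid pathway differ under the peptide. With the replicate number as a block, the homeobox gene HB-7 fell with CLE9, to 9.31 ± 1.56 FPKM against 20.7 ± 1.91 FPKM in control (SD, n = 3 each; limma adjusted p = 0.0423, against 0.244 with group only). The block takes the replicate numbers as pairs, which the data match for replicate 2 but do not settle for replicates 1 and 3. The phosphatase gene PP2CA, the proline synthesis gene P5CS1, the caleosin gene RD20 and the bZIP gene ABF3 did not pass. They were among the 12 tested genes, HB-7 included, that were lower in each CLE9 library than in the control of the same number. The rest of these were PYR1, PYL1, ABI2, HAB1, HAB2, SnRK2.3 and HB-12, which did not pass either. The hormone breakdown gene CYP707A1 was higher in each pair, as were PYL4, PYL6 and ABF2, and none of these passed. Of the 38 genes, 32 averaged at least 1 FPKM across all libraries and were tested. Their median log2 change was -0.20, with 11 above and 21 below zero, against a median of -0.055 over all 17812 genes tested, of which 7590 were above and 10222 below zero.

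With group alone in the model, limma called 0 of the 32 genes at an adjusted p under 0.05 in either direction, beside 0.0% of all tested genes called higher and 0.00561% called lower. At an unadjusted p under 0.05, 0 were higher (5.83% of all genes) and 4 were lower (3.07%). These 4 were PP2CA, HB-7, P5CS1 and ABI2, the last of which passed the filter only through the control libraries and had to differ. With the block, 0 of the 32 were called higher (1.75% of all genes) and 1, HB-7, was called lower (0.247%). At an unadjusted p under 0.05 the block gave 1 higher (11.2% of all genes) and 8 lower (9.45%), ABI2 among them. With libraries weighted by their fit (limma array weights), 4 members were called higher (14.7% of all genes) and 11 lower (12.7%), again with ABI2. The groups did not overlap for 1 gene that was higher with CLE9 (8.51% of all genes) and for 7 that were lower (7.47%), ABI2 among them. In the 3 pairs of libraries with the same number, 4 genes were higher in every pair (19.8% of all genes) and 12 were lower in every pair (26.0%), so the lower genes made up 37.5% of the members. ABI2 is 1 of these 12 as well. Without replicate 2 of both groups, a comparison of 2 libraries with 2 that was chosen with earlier results known, 2 members were called higher (8.41% of all genes) and 5 were called lower (2.95%). They were ABI1 and CYP707A1 on the higher side and PP2CA, ABF3, HB-7, RD20 and P5CS1 on the lower side. Over the alternatives run, the limma adjusted p reached as low as 0.00134 for PP2CA, 0.00401 for P5CS1, 0.0137 for RD20, 0.0129 for ABF3, 0.00407 for ABI1 and 0.0359 for CYP707A1, and each of them went up to 1.00. All of these low ends came from the array weights, under which 4884 of the 17812 genes tested were called. The upper end was reached without control replicate 1 or control replicate 3, and all 22 genes whose change is printed shared it.

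**Figure D1:**
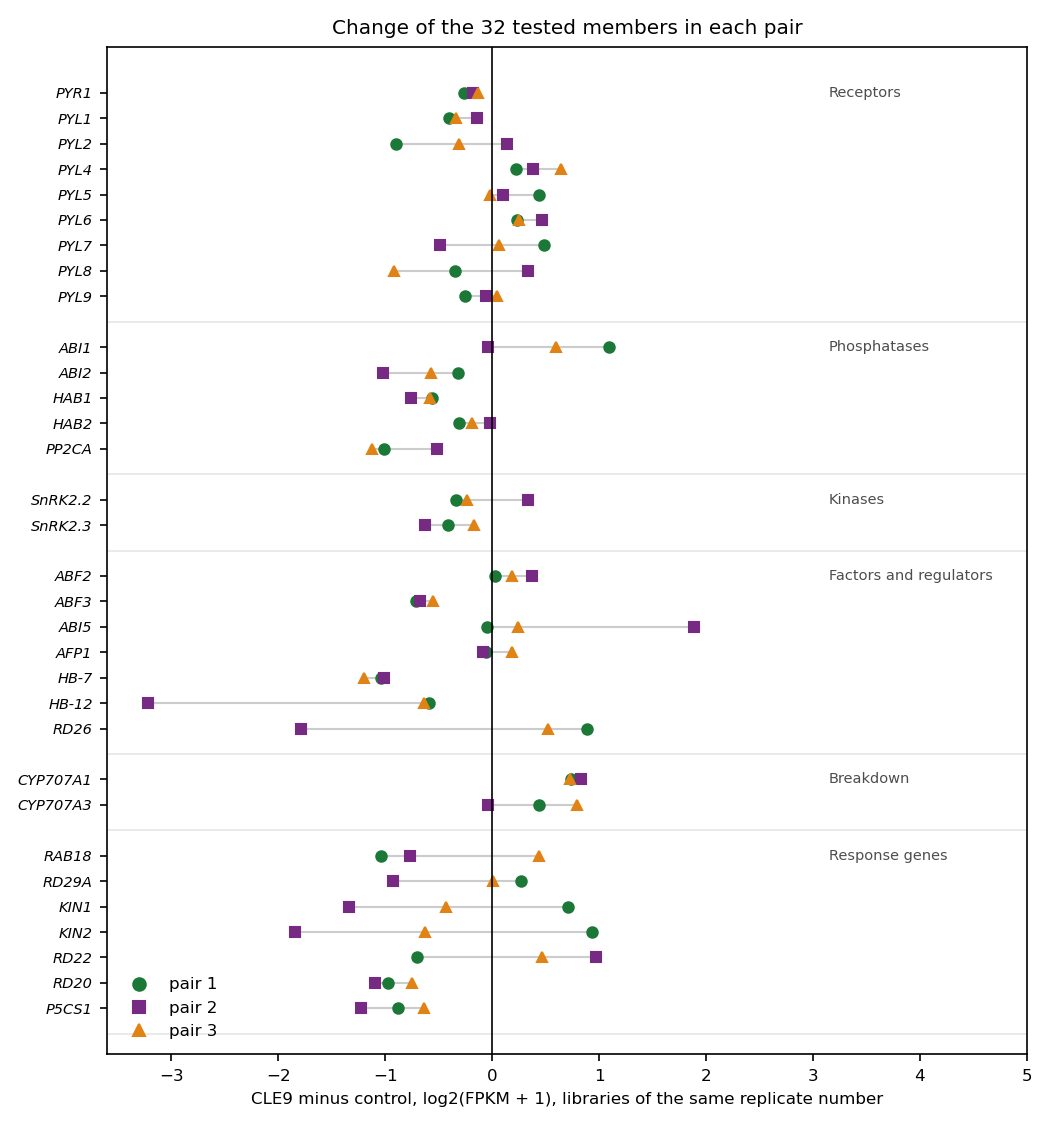
Log2(FPKM + 1) in CLE9 minus control for the 32 tested genes, within each pair of libraries of the same replicate number (points), with genes grouped by step; the grey lines join the lowest and the highest pair. All 3 points lie left of zero for 12 genes, HB-7 among them at -1.04, -1.01 and -1.20, and right of zero for 4; HB-12, RD26 and ABI5 have pair 2 far from the other points.

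The upstream sequences of 5 of these genes are shown because HB-7 was the gene called and the other 4, from the phosphatase, response and turnover steps, are among those that held their direction in all 3 pairs. Each is the 250 bases before the gene start in the RefSeq annotation of build TAIR10.1, read on the strand of the gene, with every match to ACGTG or its reverse complement in capitals.
HB-7, chr2:19166968-19167217, minus strand: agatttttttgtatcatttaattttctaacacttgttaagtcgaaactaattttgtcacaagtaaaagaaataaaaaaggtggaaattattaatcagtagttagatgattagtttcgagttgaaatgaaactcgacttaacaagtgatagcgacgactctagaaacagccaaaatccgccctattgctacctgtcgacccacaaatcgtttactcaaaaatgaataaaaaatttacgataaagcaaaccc
PP2CA, chr3:3585851-3586100, minus strand: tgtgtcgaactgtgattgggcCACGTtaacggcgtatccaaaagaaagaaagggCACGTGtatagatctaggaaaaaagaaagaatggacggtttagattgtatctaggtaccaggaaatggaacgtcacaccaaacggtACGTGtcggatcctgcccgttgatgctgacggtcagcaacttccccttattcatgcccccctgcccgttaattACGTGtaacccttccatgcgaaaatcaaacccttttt
P5CS1, chr2:16603320-16603569, minus strand: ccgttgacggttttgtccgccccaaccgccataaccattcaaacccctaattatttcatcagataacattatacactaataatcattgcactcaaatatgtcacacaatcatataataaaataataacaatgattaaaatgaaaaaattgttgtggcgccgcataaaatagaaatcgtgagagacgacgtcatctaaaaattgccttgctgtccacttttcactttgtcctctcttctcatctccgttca
RD20, chr2:14146556-14146805, minus strand: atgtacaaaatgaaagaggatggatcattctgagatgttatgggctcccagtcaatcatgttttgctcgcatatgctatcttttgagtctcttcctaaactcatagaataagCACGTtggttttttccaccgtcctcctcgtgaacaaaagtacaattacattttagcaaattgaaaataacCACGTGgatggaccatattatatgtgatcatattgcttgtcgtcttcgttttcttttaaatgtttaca
CYP707A1, chr4:10521009-10521258, plus strand: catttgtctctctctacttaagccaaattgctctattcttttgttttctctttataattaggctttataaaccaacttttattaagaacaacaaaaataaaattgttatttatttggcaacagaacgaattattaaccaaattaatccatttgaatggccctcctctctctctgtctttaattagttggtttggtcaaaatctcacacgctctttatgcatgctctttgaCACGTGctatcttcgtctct
PP2CA held 5 matches, which begin 229, 196, 195, 110 and 37 bases before the gene start, and the matches at 196 and 195 overlap in the palindrome CACGTG. RD20 held 3 (138, 68 and 67 bases before the start) and CYP707A1 held 2 (20 and 19), and in both genes the last pair is 1 palindrome. HB-7 and P5CS1 held none in this window, which says nothing of sequence beyond it. Over all 38 members, 21 (55.3%) held ACGTG on either strand, against 22.9% of 27437 windows of the same length before protein-coding genes. By step this was 2 of 9 receptor genes, 5 of 8 phosphatase genes, 2 of 3 kinase genes and 4 of 7 genes of factors and regulators. It was 2 of 3 genes of synthesis and breakdown and 6 of 8 response genes. The windows of PYL7 and RAB18, both counted, overlap another gene. The members were chosen for known roles in this pathway, and the excess over all windows was not tested. The longer form ACGTGNC, whose matches all contain ACGTG, was in 14 members (36.8%, against 8.57% of all windows). The cold and drought element core CCGAC was in 4 (10.5%, against 12.0%), among them RD29A with 3 matches and PP2CA with 1. The homeodomain-zipper site CAATNATTG was in 1 (2.63%, against 0.918%), the receptor gene PYL8. These matches are letters in a window and were not tested for binding.

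Among the receptors, none of the 9 members was called in either fit (log2 changes between -0.36 and 0.42). PYL4 (AT2G38310) had the highest level of the 9 in every library, at 319, 309 and 401 FPKM with CLE9 and 274, 236 and 257 FPKM in control. The groups did not overlap, with every CLE9 library above every control library. Its log2 change was 0.42 ± 0.22 (SE; limma adjusted p = 0.675 without the block and 0.369 with it). PYL4 made up 43.2%, 52.1% and 50.1% of the summed receptor FPKM in CLE9 replicates 1, 2 and 3, against 39.7%, 46.9% and 36.6% in control replicates 1, 2 and 3.

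PYL1 (AT5G46790), a receptor that forms a dimer without hormone, went the other way at 25.2, 24.1 and 26.0 FPKM with CLE9 and 33.7, 26.7 and 33.2 FPKM in control. Here too the groups did not overlap, with the CLE9 libraries lower and much alike. This is a log2 change of -0.30 ± 0.16 (limma adjusted p = 0.687 and 0.337 with the block). PYL6 (AT2G40330), a close relative of PYL4 and PYL5, was at 35.9, 50.4 and 39.0 FPKM with CLE9 and 30.3, 36.2 and 32.6 FPKM in control, higher in each pair, with CLE9 replicate 1 below control replicate 2. PYR1 (AT4G17870), found through resistance to the synthetic agonist pyrabactin, was at 118, 54.1 and 127 FPKM with CLE9 and 142, 61.5 and 139.7 FPKM in control, and replicate 2 was the lowest library of both groups.

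PYL5 (AT5G05440) was at 158, 92.9 and 138 FPKM with CLE9 and 116, 86.6 and 139 FPKM in control, with the groups overlapping. PYL8 (AT5G53160), which is known for its part in root growth under abscisic acid, was at 46.3, 46.3 and 34.4 FPKM with CLE9 and 59.0, 36.6 and 65.9 FPKM in control. PYL8 was lower with CLE9 in pairs 1 and 3 and higher in pair 2. PYL7 (AT4G01026) was at 25.0, 7.15 and 18.9 FPKM with CLE9 and 17.6, 10.4 and 18.0 FPKM in control. PYL9 (AT1G01360) and PYL2 (AT2G26040) averaged 7.98 ± 1.97 and 4.18 ± 0.928 FPKM with CLE9 and 8.53 ± 1.81 and 5.89 ± 2.41 FPKM in control (SD, n = 3 each). These 3 had overlapping groups. PYL7 shares 571 bases with a gene on the opposite strand, and no source used here says whether the authors counted by strand. By mean over the 6 libraries the order was PYL4, PYL5, PYR1, PYL8, PYL6, PYL1, PYL7, PYL9 and PYL2. The range of PYL4 over the 6 libraries lay wholly above that of PYL5, while every later neighbour in this order overlapped in range with the one before it.

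**Figure D2:**
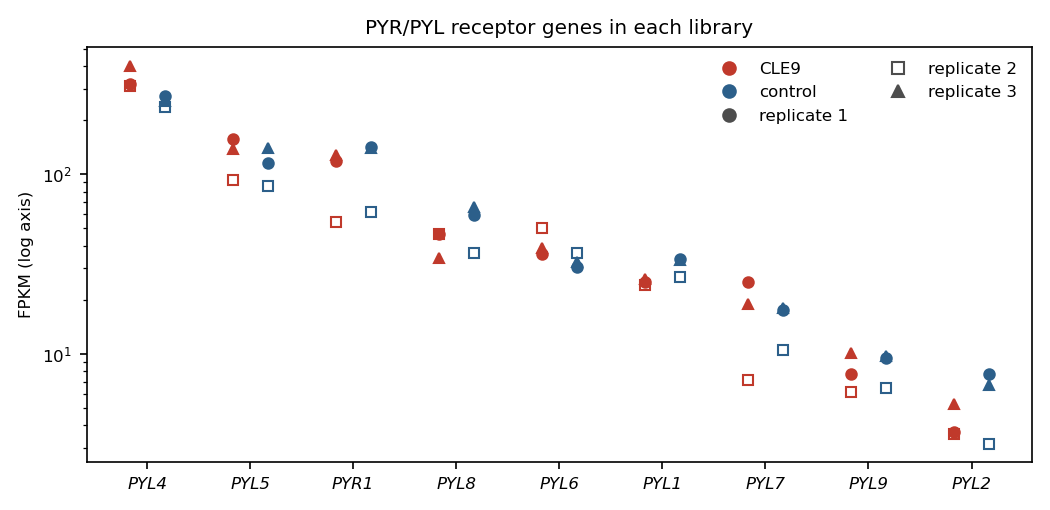
FPKM on a log axis of the 9 receptor genes in each library, ordered by their mean, with CLE9 libraries in red left of control libraries in blue and replicate 2 as open squares. PYL4 lies highest, with all CLE9 points (309 FPKM or more) above all control points (274 FPKM or less), and replicate 2 is the lowest point of both groups for every gene except PYL8 and PYL6.

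The clade A phosphatases block the SnRK2 kinases when no hormone is bound by the receptors. Of the 5 tested, 4 had a negative log2 change and none was called in either fit. PP2CA (AT3G11410), which is induced by the hormone it restrains, was at 3.83, 5.76 and 4.41 FPKM with CLE9 and 8.73, 8.69 and 10.8 FPKM in control. Each CLE9 library lay below each control library. The log2 differences within pairs were -1.01, -0.52 and -1.13, with CLE9 replicate 2 the highest library of its group. The log2 change was -0.89 ± 0.19 (limma adjusted p = 0.280 with group only, 0.0723 with the block and 0.0115 without replicate 2 of both groups).

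ABI2 (AT5G57050), one of the first phosphatases found through hormone-insensitive mutants, was at 1.12, 0.540 and 0.830 FPKM with CLE9 and 1.65, 2.13 and 1.73 FPKM in control. Its groups did not overlap either, with CLE9 lower and a log2 change of -0.64 ± 0.20. It averaged 0.829 FPKM with CLE9 and 1.83 FPKM in control, so it passed the filter on mean level only through the control libraries, and its p-values carry no weight. ABI1 (AT4G26080), its close homologue, had the opposite sign. It was at 49.2, 27.9 and 36.4 FPKM with CLE9 and 22.5, 28.6 and 23.8 FPKM in control, higher in pairs 1 and 3 and about level in pair 2, where the change was -0.036. Without replicate 2 of both groups ABI1 was called higher, at 0.85 ± 0.17 (limma adjusted p = 0.0355), while over all 6 libraries the change was 0.55 ± 0.25 (adjusted p = 0.600 and 0.290 with the block) and without CLE9 replicate 1 it was 0.35.

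HAB1 (AT1G72770), which acts redundantly with ABI1, was at 6.84, 2.77 and 5.90 FPKM with CLE9 and 10.6, 5.39 and 9.32 FPKM in control. It was lower in each pair by a like amount, with log2 differences of -0.56, -0.76 and -0.58, while replicate 2 was lowest in both groups (limma adjusted p = 0.701 without the block and 0.0849 with it). HAB2 (AT1G17550), its nearest paralogue, averaged 5.63 ± 0.386 FPKM with CLE9 and 6.51 ± 0.980 FPKM in control (SD, n = 3 each). The 3 HAI genes, named for strong induction by abscisic acid, were below the filter and not tested. HAI1 (AT5G59220) was at 0.564, 1.95 and 0.276 FPKM with CLE9 and 0.563, 1.19 and 0.771 FPKM in control, with replicate 2 highest in both groups. HAI2 (AT1G07430) reached at most 0.327 FPKM with CLE9 and 0.460 FPKM in control, both in replicate 2. HAI3 (AT2G29380) was listed at 0 in every CLE9 library and at 0, 0 and 0.0880 FPKM in control.

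SnRK2.2 and SnRK2.3 are the closely related kinases that, with SnRK2.6, carry most of the hormone signal. SnRK2.3 (AT5G66880) was at 18.7, 19.2 and 23.0 FPKM with CLE9 and 25.2, 30.1 and 25.9 FPKM in control. The groups did not overlap, with all CLE9 libraries lower. Its log2 change came to -0.40 ± 0.17 (limma adjusted p = 0.567 and 0.254 with the block).

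SnRK2.2 (AT3G50500) was at 51.1, 101 and 51.9 FPKM with CLE9 and 64.9, 80.1 and 61.4 FPKM in control, with replicate 2 highest in both groups and the groups overlapping. Its log2 change of -0.081 ± 0.32 (limma adjusted p = 0.964 and 0.862 with the block) turned positive when control replicate 2 (0.032), CLE9 replicate 1 (0.085) or CLE9 replicate 3 (0.073) was left out. MAPKKK18 (AT1G05100), a kinase gene induced by the hormone, was at 0.367, 0.867 and 0.499 FPKM with CLE9 and 0.728, 0.727 and 0.298 FPKM in control and was not tested.

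HB-7 and its paralogue HB-12 encode homeodomain-leucine zipper factors that are induced by water deficit and abscisic acid. HB-7 (AT2G46680, chromosome 2, 19165403 to 19166949, minus strand, in the deposited TAIR10 coordinates) was at 9.89, 10.5 and 7.54 FPKM with CLE9 and 21.4, 22.2 and 18.6 FPKM in control. The highest CLE9 library was well below the lowest control library, and replicate 2 lay close to replicate 1 in both groups. The log2 change was -1.08 ± 0.18 with group only (limma adjusted p = 0.244) and -1.08 ± 0.14 with the block (adjusted p = 0.0423). The adjusted p over the alternatives of both fits ranged from 3.4e-04, with array weights, to 1.00, reached without control replicate 1 or 3. The blocked call was lost without replicate 1 (adjusted p = 0.250), without replicate 3 (0.256) and with a pseudocount of 0.1 (0.0623), and held without replicate 2 (0.00674).

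HB-12 (AT3G61890) was at 22.4, 2.19 and 18.3 FPKM with CLE9 and 34.3, 28.6 and 29.1 FPKM in control. All CLE9 libraries were lower, and CLE9 replicate 2 was far below the others. The log2 change of -1.48 ± 0.76 (limma adjusted p = 0.657 and 0.226 with the block) was -0.57 without CLE9 replicate 2.

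The bZIP factors act directly below the kinases. ABF3 (AT4G34000) was at 7.35, 3.20 and 7.71 FPKM with CLE9 and 12.7, 5.70 and 11.8 FPKM in control, lower in each pair with log2 differences of -0.71, -0.67 and -0.55. Replicate 2 was lowest in both groups, so the groups overlapped (limma adjusted p = 0.722 with group only, 0.0794 with the block and 0.0312 without replicate 2 of both groups). ABF2 (AT1G45249) was at 6.95, 12.1 and 7.57 FPKM with CLE9 and 6.82, 9.16 and 6.52 FPKM in control, with small positive differences in each pair and overlapping groups.

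ABI5 (AT2G36270), the bZIP factor of seed germination and early seedling arrest, was at 0.578, 15.2 and 0.812 FPKM with CLE9 and 0.628, 3.37 and 0.529 FPKM in control. Both replicate 2 libraries were above the others, and it passed the filter through them. The seed storage genes beside it summed to 0.674 FPKM in CLE9 replicate 2 and 0.589 FPKM in control replicate 2, and to at most 0.0786 FPKM in the other libraries. In replicate 2 of CLE9 and control these sums came from SESA1 (0.319 and 0.238 FPKM) and SESA2 (0.355 and 0.351 FPKM) alone. The other listed seed storage genes were at 0 in both. AFP1 (AT1G69260), which encodes a partner that promotes loss of the ABI5 protein, showed the same libraries high, at 1.20, 3.63 and 1.08 FPKM with CLE9 and 1.28, 3.91 and 0.829 FPKM in control. RD26 (AT4G27410), a NAC factor of the drought and abscisic acid response, was at 22.6, 3.56 and 16.3 FPKM with CLE9 and 11.8, 14.8 and 11.0 FPKM in control. It was higher with CLE9 in pairs 1 and 3 and lower in pair 2, and its overall change was -0.13 ± 0.61.

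NCED3 encodes the dioxygenase that limits hormone synthesis under drought, and the CYP707A enzymes hydroxylate the hormone and start its breakdown. NCED3 (AT3G14440) was below the filter and not tested, at 0.400, 0.713 and 0.567 FPKM with CLE9 and 1.01, 1.93 and 0.896 FPKM in control. Every CLE9 library was nonetheless lower than every control library. CYP707A1 (AT4G19230) was at 1.71, 12.2 and 2.17 FPKM with CLE9 and 0.620, 6.41 and 0.908 FPKM in control. Within each pair CLE9 was higher by 0.74, 0.83 and 0.73 on the log2 scale, while replicate 2 was highest in both groups and the groups overlapped.

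The change of CYP707A1 was 0.77 ± 0.83 with group only (limma adjusted p = 0.832) and 0.77 ± 0.14 with the block (adjusted p = 0.0627). Without control replicate 2 it was 1.46, and without CLE9 replicate 2 it was 0.045. CYP707A3 (AT5G45340) was at 5.59, 117 and 6.72 FPKM with CLE9 and 3.86, 120.4 and 3.46 FPKM in control, and replicate 2 exceeded the other libraries of both groups by far more than the groups differed. Its change of 0.40 ± 1.69 (limma adjusted p = 0.967 and 0.334 with the block) changed sign when control replicate 1 (-0.36), control replicate 3 (-0.42) or CLE9 replicate 2 (-0.95) was left out.

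Among the 8 response genes, 7 were tested, 6 of these had a negative log2 change, and none was called in either fit. P5CS1 (AT2G39800), the enzyme that limits proline synthesis under stress, was at 5.73, 3.34 and 7.07 FPKM with CLE9 and 11.4, 9.15 and 11.5 FPKM in control. The groups did not overlap and the CLE9 libraries were lower. The gene shares 91 bases with a neighbour on the opposite strand, as SnRK2.3 does over 28 bases and AFP1 over 32. P5CS1 had a log2 change of -0.91 ± 0.26 (limma adjusted p = 0.381 with group only, 0.0653 with the block and 0.0275 without replicate 2 of both groups).

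RD20 (AT2G33380), a calcium-binding caleosin induced by drought, was at 0.773, 3.45 and 1.02 FPKM with CLE9 and 2.49, 8.53 and 2.40 FPKM in control. Replicate 2 was highest in both groups, and each CLE9 library was below the control of its number, with log2 differences of -0.98, -1.10 and -0.75. The log2 change was -0.94 ± 0.54 with group only (limma adjusted p = 0.701) and -0.94 ± 0.15 with the block (adjusted p = 0.0532). It was -0.45 without control replicate 2.

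RD29B (AT5G52300), a classical target with several ACGTG elements, was at 0.632, 0.364 and 0.402 FPKM with CLE9 and 0.955, 0.748 and 1.18 FPKM in control. It was below the filter, with each CLE9 library lower than each control library. Its upstream window held 4 matches to ACGTG, at 143, 61, 38 and 10 bases before the gene start. RD29A (AT5G52310), the neighbouring homologue with drought and cold elements, was at 37.9, 65.1 and 29.4 FPKM with CLE9 and 31.3, 125 and 29.2 FPKM in control. Here control replicate 2 was the highest library and the other controls lay close to CLE9 replicates 1 and 3.

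RAB18 (AT5G66400), a dehydrin, was at 0.526, 3.46 and 3.25 FPKM with CLE9 and 2.13, 6.59 and 2.13 FPKM in control, with overlapping groups. The cold and hormone responsive genes KIN1 and KIN2 are near-identical tandem copies, so their single values are uncertain. KIN2 (AT5G15970) was at 66.9, 18.1 and 23.2 FPKM with CLE9 and 34.5, 67.5 and 36.5 FPKM in control, highest in CLE9 replicate 1 and control replicate 2. KIN1 (AT5G15960) averaged 1.68 ± 0.974 FPKM with CLE9 and 2.64 ± 2.14 FPKM in control (SD, n = 3 each). RD22 (AT5G25610), a dehydration-induced gene of the BURP domain family, was at 46.0, 50.1 and 93.9 FPKM with CLE9 and 75.5, 25.1 and 67.6 FPKM in control, with a log2 change of 0.25 ± 0.50 and overlapping groups.

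**Figure D3:**
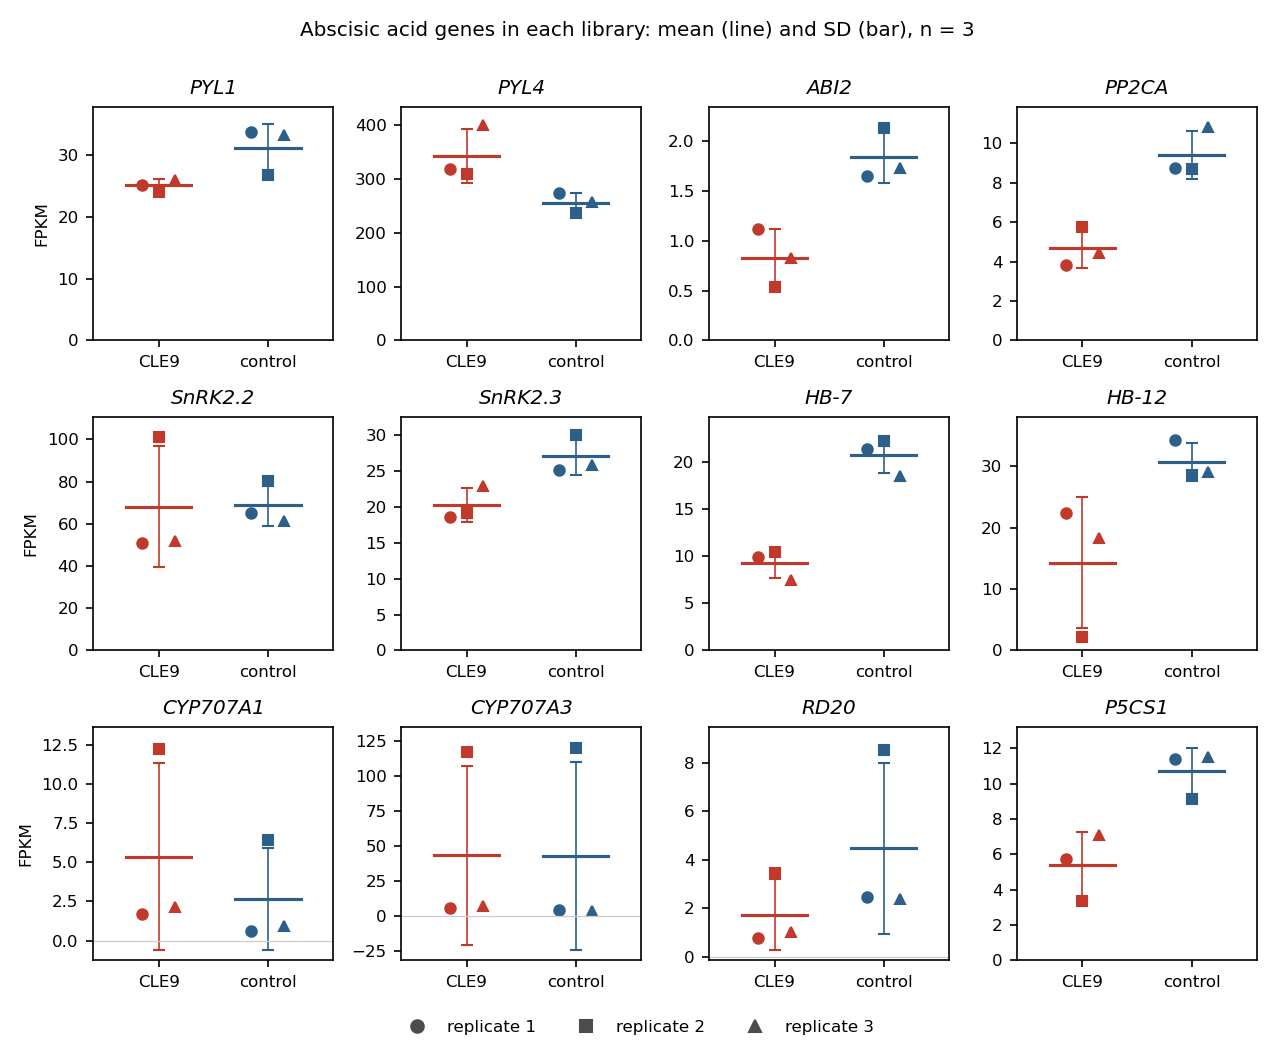
FPKM in each library of the 12 genes given in full, with CLE9 left of control, the mean as a line and the SD as a bar (n = 3 each). HB-7, PP2CA, P5CS1, ABI2, SnRK2.3 and PYL1 show CLE9 libraries wholly below control libraries, as does HB-12, whose CLE9 replicate 2 stands far below the rest, while replicate 2 (squares) is highest in both groups for SnRK2.2, CYP707A1, CYP707A3 and RD20.

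Replicate 2 departed from its own group in the same direction in both groups for most of the 32 tested members, upward for 11 and downward for 13. The same was so for most of the 17812 genes tested, upward in both groups for 4352 and downward for 9514. Across these 32 genes the departures in CLE9 and in control correlated at r = 0.74, and they correlated at 0.74 across all genes tested as well; the genes share the same 6 libraries and are not independent. CYP707A3 was 4.05 log2 units above the other CLE9 libraries and 4.70 above the other controls, and CYP707A1 was 2.17 and 2.07 above. The touch and wounding genes had medians of 3.06 in CLE9 and 4.10 in control in the same libraries. Between the groups, 9 of these 13 genes had a positive log2 change with CLE9 and 4 a negative one. Their median CLE9 minus control difference was 0.63, 0.069 and 0.72 in pairs 1, 2 and 3, so replicate 2 was not all that moved them. Their part in the abscisic acid values was not tested. HB-7 departed by 0.25 in CLE9 and 0.15 in control. HB-12 and RD26 departed by -2.74 and -2.15 in CLE9 and by -0.14 and 0.35 in control. The leaf photosynthesis genes were low in CLE9 replicate 2 as well, with a median departure of -1.71 in CLE9 and -0.17 in control.

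**Figure D4:**
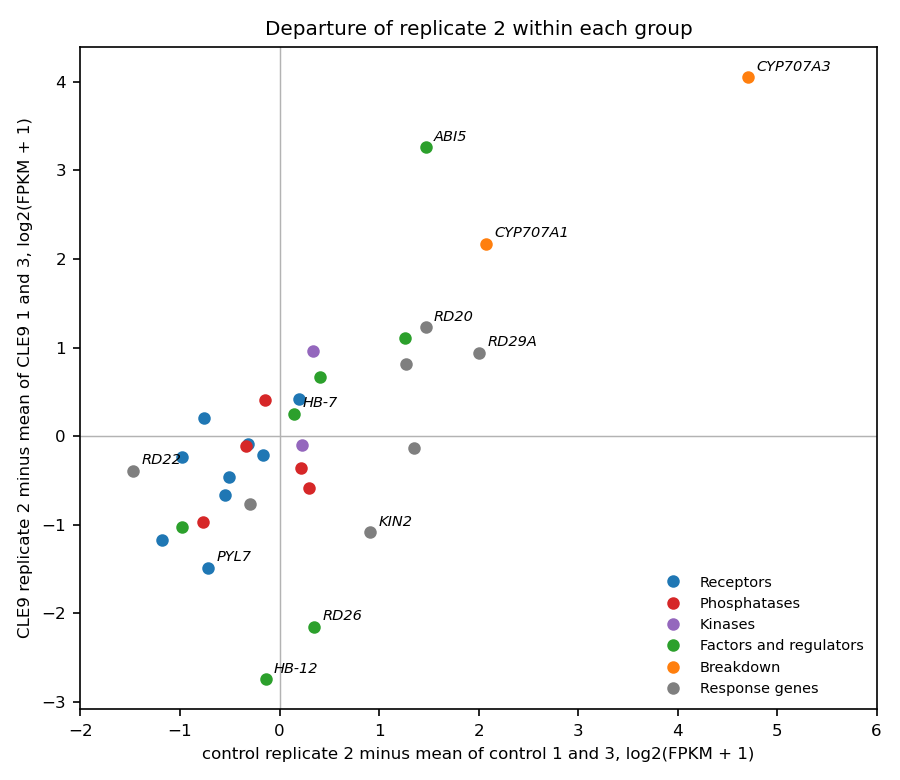
Departure of replicate 2 from the mean of replicates 1 and 3, in log2(FPKM + 1), with CLE9 libraries on the vertical axis and control libraries on the horizontal axis; each point is 1 of the 32 tested genes, coloured by step. CYP707A3 (4.05 in CLE9, 4.70 in control) and CYP707A1 lie high in both, HB-7 lies near zero in both, and HB-12 (-2.74) and RD26 (-2.15) lie far down on the CLE9 axis but near zero on the control axis.

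Beside the members, 49 other genes of the pathway were listed, and 29 of them were tested. Limma called none of them in either fit. Their median log2 change was -0.039, with 12 above and 17 below zero. At an unadjusted p under 0.05, 4 were higher with CLE9 (5.83% of all genes) and 0 were lower (3.07%) with group only. Without replicate 2 of both groups, 4 were called higher (8.41% of all genes) and 0 lower (2.95%). In both counts these 4 were AFP4, GBF3, AAO3 and UGT71C5. The synthesis genes AAO3 and ABA1 were named after their values were seen. AAO3 was at 17.4, 11.1 and 18.5 FPKM with CLE9 and 6.66, 13.0 and 6.68 FPKM in control, lower with CLE9 in pair 2. ABA1 was at 120, 14.1 and 125 FPKM with CLE9 and 158, 154 and 150 FPKM in control. Of the 7 synthesis and breakdown genes tested here, 3 had a positive and 4 a negative log2 change.

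In each step the gene with the smallest p is given. GBF3 (AT2G46270), a bZIP factor induced by abscisic acid, was at 18.3, 13.3 and 18.6 FPKM with CLE9 and 9.49, 13.2 and 8.83 FPKM in control. Each CLE9 library was above each control, though CLE9 replicate 2 and control replicate 2 were nearly level. For GBF3 the log2 change was 0.63 ± 0.22 (limma adjusted p = 0.488 and 0.225 with the block). UGT71C5 (AT1G07240), which conjugates the hormone to glucose, was at 34.9, 47.9 and 28.6 FPKM with CLE9 and 18.4, 28.0 and 17.8 FPKM in control. Here too the groups did not overlap, with CLE9 higher by 0.76 ± 0.27 on the log2 scale (limma adjusted p = 0.496 and 0.0710 with the block).

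The kinase gene MAPKKK17, the hormone exporter gene ABCG25 and the dehydrin gene COR47 had log2 changes of -0.12 ± 0.25, 0.074 ± 0.25 and -0.44 ± 0.46, with limma adjusted p-values of 0.929, 0.959 and 0.826 with group only. COR47 was at 475, 704 and 523 FPKM with CLE9 and 589, 1421 and 518 FPKM in control, highest in replicate 2 of both groups. SnRK2.6, the kinase of guard cell closure, was at 6.61, 25.5 and 11.0 FPKM with CLE9 and 10.3, 13.2 and 10.3 FPKM in control and was named after its values were seen. The receptor genes PYL3, PYL10, PYL11, PYL12 and PYL13 stayed below 1 FPKM in every library, as did the seed genes ABI3 and ABI4.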

How the data were processed

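RNA abundance was measured in 3 CLE9 and 3 control libraries made with the NEBNext Ultra kit from TRIzol-extracted total RNA, per the labels' protocols. The authors deposited FPKM per gene, per the file headers. Build TAIR10 and the programs HISAT2 2.0.5, featureCounts 1.5.0-p3, StringTie 1.3.3b, CASAVA 1.8 and DESeq2 1.16.1 are listed without roles, per the submitters' processing notes. No counts were used, so depth was estimated from low values of 4925 single-exon genes. For each library the depth taken was the one that made the largest share of these values whole fragments. At that depth between 42.2% and 53.0% were whole within 0.1 fragments. Chance gives 20% at a depth fixed in advance, which is not a like measure for a depth picked as the best of many. The estimate is approximate and reads could not be recovered.

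Values were analysed as log2(FPKM + 1), which understates the change of genes near 1 FPKM. The 17812 genes that averaged at least 1 FPKM were fitted with limma 3.58.1 in R 4.3.3 (group only, empirical Bayes with a mean-variance trend, two-sided, Benjamini-Hochberg over all genes tested, threshold 0.05). Changes are CLE9 minus control with their SE.

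The libraries share replicate numbers. Deviations from the group means correlated at 0.545, 0.743 and 0.583 across genes for libraries numbered 1, 2 and 3. The block took the numbers as pairs. CLE9 replicate 3 correlated more with control replicate 1 (0.664), and CLE9 replicate 1 more with control replicate 3 (0.620). These values match replicate 2 across the groups but do not show that replicates 1 and 3 are paired by number. Blocked values stand beside those without the block.

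Genes given in full were those called in either fit and the 2 of each step with the smallest group-only p. The members, gene lists, rules and alternatives were chosen with earlier results of these data known. Upstream sequences were read at RefSeq coordinates of TAIR10.1. The lower coordinate of a gene equalled the deposited one for 34.0% of 26714 matched genes. On the minus strand that coordinate is the gene end, so the share does not measure agreement of gene starts. For CYP707A1 the window ended at 10521258 and the deposited start was 10521379, while for P5CS1 the window met the deposited start at 16603319.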

Additional observations from a re-analysis of the deposited data

How the results depend on the processing

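With group only, 1 of 17812 genes was called, and 0 members and 0 other pathway genes. With the replicate block, 355 genes and 1 member (lower) were called. Without replicate 2 of both groups the counts were 2024 genes, 2 members higher, 5 lower and 4 other pathway genes. With array weights they were 4884, 4, 11 (ABI2 among them) and 8. All-gene counts were 2 under quantile normalization, 0 with genes at 1 position summed, and 0 to 204 when 1 library was left out, the highest without control replicate 2 and 0 without replicate 1 of either group or CLE9 replicate 3. Leaving out 1 library called 0 members. The members' median change of -0.20 ranged from -0.31 to -0.19 there, and was -0.30 without CLE9 replicate 1 and -0.31 without CLE9 replicate 2.

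Variants of the block were added after seeing the data. It called 0 genes without replicate 1 or 3, and without replicate 2 it called 1870 genes, 2 members higher, 4 lower and 4 other pathway genes. With a pseudocount of 0.1 it called 2 genes. With median scaling it called 822 genes and with quantile normalization 744, with 3 members lower in each (HB-7, RD20 and P5CS1). For the 22 genes whose change is printed, 380 values under these alternatives kept their direction and their side of the threshold, 38 kept their direction and passed it, and 22 reversed. With the group-only fit, CYP707A3 reversed without replicate 1 (-0.36) or 3 (-0.42) of the controls or CLE9 replicate 2 (-0.95), SnRK2.2 without replicate 1 (0.085) or 3 (0.073) of CLE9 or replicate 2 of the controls (0.032), and RD26 without CLE9 replicate 2 (0.59) and with array weights (0.46). RD22 reversed without control replicate 2 (-0.25) or CLE9 replicate 3 (-0.072), ABCG25 without replicate 2 (-0.024) or 3 (-0.036) of CLE9 or replicate 1 of the controls (-0.042), COR47 without control replicate 2 (0.018), and MAPKKK17 with array weights (0.11). Without replicate 2 of both groups, RD26 was 0.71 and RD22 -0.12, with or without the block. With the block, SnRK2.2 (0.049) and MAPKKK17 (0.015) reversed without replicate 1 and ABCG25 (-0.084) without replicate 3. The causes were not tested. Over the left-out libraries SnRK2.2 ranged from -0.40 to 0.085, CYP707A3 from -0.95 to 1.97, RD26 from -0.60 to 0.59, RD22 from -0.25 to 0.53, ABCG25 from -0.042 to 0.28 and COR47 from -0.71 to 0.018. A single fragment per kilobase equals 0.032 to 0.0494 FPKM at the estimated depths, which limits what the members under 1 FPKM can show.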
